A study of Mus musculus with 8 samples.

Results

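The genes described here are Vegfa, its receptor genes Kdr and Flt1, and the endothelial genes Pecam1, Cdh5, Sox18, Egfl7, Tek, Tie1 and Angpt2. They were chosen by gene symbol, which found 10 of the 55157 genes in the deposited table, each under a single identifier. The samples were type 7 to 8 ovarian follicles of Kunming mice, an outbred stock, at postnatal day 21. All animals had been injected 24 h earlier with PMSG, a gonadotropin from the serum of pregnant mares that makes follicles grow. The 4 control samples came after PMSG with normal saline and the 4 melatonin samples after PMSG with melatonin. Whether a sample is 1 animal or a pool is not given in the sources used here, so the spread behind each p-value may be partly technical. The comparison asks how melatonin given with the gonadotropin relates to transcripts of the follicle.

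VEGFA is a secreted growth factor that draws endothelial cells, the lining cells of blood vessels, towards tissue that makes it. KDR (VEGF receptor 2) carries most of its signal, and FLT1 (VEGF receptor 1) binds it tightly but signals weakly and so limits its action. A separate pathway runs from the angiopoietins to the receptor TEK (TIE2), where ANGPT1 steadies vessels and ANGPT2 mostly opposes it, with TIE1 as a partner of TEK. In the ovary, granulosa cells make VEGFA while vessels lie outside the basement membrane in the theca, so the ligand and its receptors come from different cells. PECAM1 and CDH5 (VE-cadherin) join endothelial cells to each other, EGFL7 is a matrix protein they secrete, and SOX18 is a transcription factor of growing vessels.

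Promoter sequences upstream of the start sites of the ligand gene and the receptor genes were read for short motifs. RefSeq promoters (GRCm38.p6) were found for 6 of the 10 genes. The 250 bases before the start are printed for the ligand Vegfa (chr17:46032378-46032627, minus strand), the receptor genes Kdr (chr5:75978456-75978705, minus strand) and Flt1 (chr5:147726012-147726261, minus strand), and Tek (chr4:94739039-94739288, plus strand), which read 5′ to 3′ with the start site just after the last base. Capitals mark GGAA or its complement TTCC, the core that ETS factors bind, a family with many members in endothelial cells.
Vegfa: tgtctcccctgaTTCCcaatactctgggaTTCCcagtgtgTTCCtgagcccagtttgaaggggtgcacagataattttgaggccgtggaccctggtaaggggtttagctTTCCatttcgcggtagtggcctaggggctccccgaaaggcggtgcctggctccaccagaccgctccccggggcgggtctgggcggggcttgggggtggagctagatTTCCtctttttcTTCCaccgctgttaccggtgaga
Kdr: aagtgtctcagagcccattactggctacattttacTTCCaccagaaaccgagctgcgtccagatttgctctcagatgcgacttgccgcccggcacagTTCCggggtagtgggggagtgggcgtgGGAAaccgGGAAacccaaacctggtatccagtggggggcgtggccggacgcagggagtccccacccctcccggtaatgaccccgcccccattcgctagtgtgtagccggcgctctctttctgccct
Flt1: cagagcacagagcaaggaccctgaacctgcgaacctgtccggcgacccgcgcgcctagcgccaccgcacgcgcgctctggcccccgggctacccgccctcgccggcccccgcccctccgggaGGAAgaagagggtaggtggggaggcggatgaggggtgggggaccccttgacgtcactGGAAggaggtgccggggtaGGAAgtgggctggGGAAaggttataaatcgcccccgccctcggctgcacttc
Tek: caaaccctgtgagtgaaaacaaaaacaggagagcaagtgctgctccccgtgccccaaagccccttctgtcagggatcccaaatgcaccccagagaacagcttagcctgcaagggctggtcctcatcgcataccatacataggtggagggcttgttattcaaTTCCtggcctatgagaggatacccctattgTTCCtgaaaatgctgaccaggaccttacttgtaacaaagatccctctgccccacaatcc
The ETS core was present 6 times in this Vegfa window, 4 times in Kdr, 4 times in Flt1 and 2 times in Tek. It is a common motif, found in 93.4% of 32851 RefSeq promoters on either strand, with a median of 3 matches. At least 6 matches were held by 8.69% of promoters and at least 4 by 33.4%. Tie1 had 7, a number reached by 3.82%, and the 3 annotated Egfl7 starts had 5, 3 and 1. ACAAT, the core of SOX sites, had 2 matches in Tek and 0 in the other 8 windows, where 27.7% of promoters hold it. ACGTG is 1 form of the core of hypoxia response elements, held by 16.6% of promoters, and other forms were not counted. It had 1 match before the second annotated start of Vegfa (not printed) and 0 in the other 8 windows. That window lies inside the Vegfa gene, and bases 16 to 45 after its start were in no GENCODE M21 transcript of Vegfa, so this start is uncertain. These counts describe letters in short windows and identify no binding site.

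Depth and composition of the libraries were examined first. Control libraries had an implied depth of 17451111 to 22034311 fragments, and melatonin libraries of 18553187 to 23649204. Summed FPKM (fragments counted on a gene, scaled to its exon length and the library's depth) of red blood cell markers spanned 66.5 to 1545 across controls and 125 to 479 across melatonin libraries, the highest being control replicate 3. Leukocyte and platelet markers summed to 11.6 to 36.4 and 9.29 to 16.3 FPKM, again highest in control replicate 3. Stromal fibroblast markers summed to 44.3 to 94.1 and 28.4 to 56.1 FPKM, highest in control replicate 2. The Spearman correlation across genes of a library's deviation with GC content lay between -0.024 and 0.261 for controls and between -0.182 and -0.121 for melatonin libraries. With exon length it lay between -0.107 and -0.048 for controls and between 0.024 and 0.115 for melatonin libraries. Neither range overlapped between the groups, so these trends and the treatment cannot be told apart by group alone.

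Endothelial transcripts were detected in every library. Of 8 granulosa markers, the highest was Inha, which stood at 6597 ± 641 FPKM in control and 5445 ± 309 in melatonin (n = 4 per group, SD), and the lowest was Cyp19a1, named after its values were seen, at a mean of 7.83 FPKM. The 8 endothelial markers (Pecam1, Cdh5, Kdr, Flt1, Tek, Tie1, Egfl7 and Sox18) each had at least 34 recovered fragments in every library, so none was at 0. The 10 genes spanned a wide range of length-corrected level, from Flt1 at a mean of 0.226 FPKM over the 8 libraries to Vegfa at 26.7 FPKM. Among genes with any FPKM above 0, the mean level of Vegfa exceeded that of 94.5%, Angpt2 90.3%, Sox18 85.4%, Cdh5 69.5% and Flt1 40.9%. The mean levels of the others were 17.2 FPKM for Angpt2, 11.4 for Sox18, 3.16 for Cdh5, 2.12 for Egfl7, 1.48 for Pecam1, 1.41 for Kdr, 0.633 for Tek and 0.632 for Tie1.

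**Figure D1:**
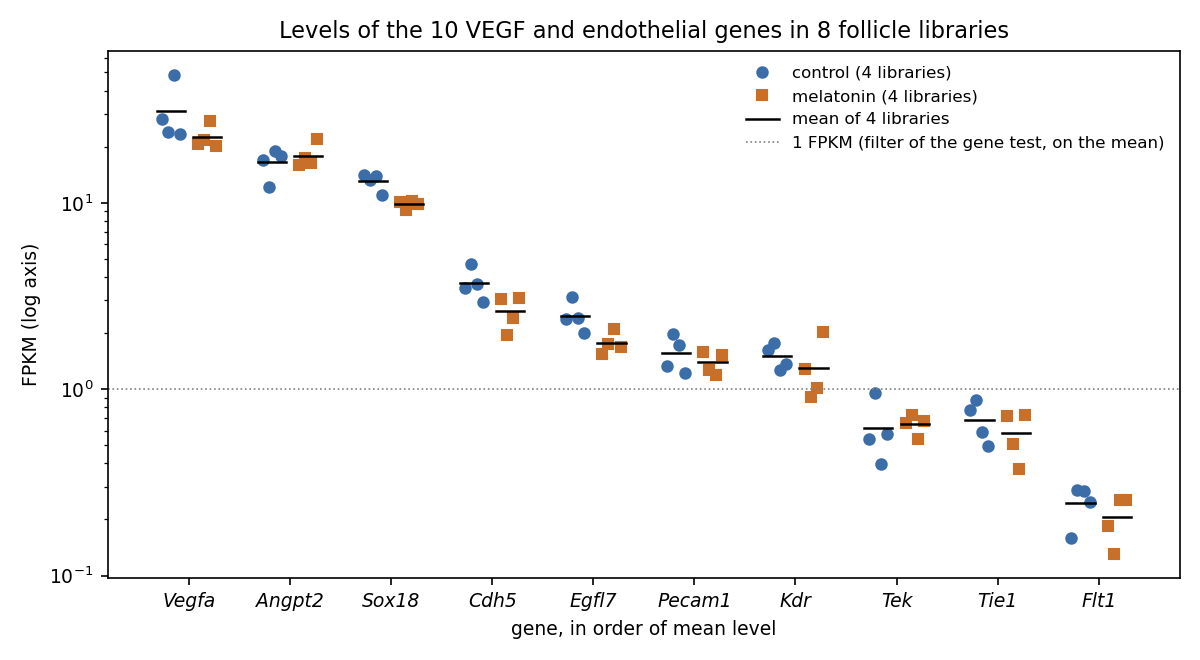
FPKM (log axis) of the 10 genes in each library, ordered by mean level, with circles for the 4 control and squares for the 4 melatonin libraries, and bars for group means. Vegfa, Angpt2 and Sox18 sit at 9.09 FPKM or more in all 8 libraries, while Cdh5, Egfl7, Pecam1, Kdr, Tek, Tie1 and Flt1 stay at 4.68 FPKM or less.

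Neighbours in this order were compared within libraries by a two-sided exact permutation test on the signs of the 8 log ratios (9 comparisons, Benjamini-Hochberg adjusted). The pairs and their direction were set by the mean levels of these same libraries, so the p-values are not independent evidence of the order. The smallest exact p that 8 libraries allow is 0.0078 before adjustment. Every pair with the same direction in 8 of 8 libraries had that value, so it does not measure the size or steadiness of a gap. Sox18 exceeded Cdh5 in 8 of 8 libraries, 3.69-fold on average (range 2.84 to 4.65, exact adjusted p = 0.0176). Kdr exceeded Tek in 8 of 8 libraries, 2.21-fold (1.24 to 3.19), and Tie1 exceeded Flt1 in 8 of 8, 2.81-fold (1.46 to 4.85), both with the same exact adjusted p of 0.0176. Pecam1 and Kdr were not separable, with a ratio of 1.07 (0.755 to 1.40, exact adjusted p = 0.466). Tek and Tie1, receptor and partner, were not separable either, at 1.01 (0.669 to 1.44, exact adjusted p = 0.945). The other neighbours differed by 1.42-fold to 1.51-fold, in 7 or 8 of 8 libraries (exact adjusted p of at most 0.0201).

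Among 37 further endothelial genes, 24 had a mean below 1 FPKM, including the von Willebrand factor gene Vwf at 0.096, the mucin-like gene Emcn at 0.226 and Robo4 at 0.246, named after their values were seen. Sox18 stood far above its closest relatives Sox7 and Sox17, also named after their values were seen, which had means of 0.162 and 0.136 FPKM. Angpt2 likewise stood above its counterpart Angpt1 (mean 0.257 FPKM) and the third ligand gene Angpt4 (0.737 FPKM), both named after their values were seen. In whole-follicle RNA fewer cells of a type and less RNA per cell cannot be told apart, and the cell that makes each transcript was not measured.

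None of these genes passed the threshold between the groups. With limma (log2(FPKM + 1), 14738 genes whose mean reached 1 FPKM, Benjamini-Hochberg adjustment over all of them), 0 of the 7 tested members had an adjusted p under 0.05. Across all tested genes the count was also 0, or 0% of 14738. At an unadjusted p under 0.05 there were 3 of 7 members, all lower with melatonin, Sox18, Cdh5 and Egfl7, where 19.1% of all tested genes met that rule, 9.74% lower and 9.4% higher. Log2 fold changes were negative in 6 of 7, with a median of -0.32, where 52.5% of all tested genes were negative, with a median of -0.0099. Flt1, Tek and Tie1 were below the filter and are given as values. limma-voom on recovered fragments also called 0 of the 7 members and 0 genes in all.

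**Figure D2:**
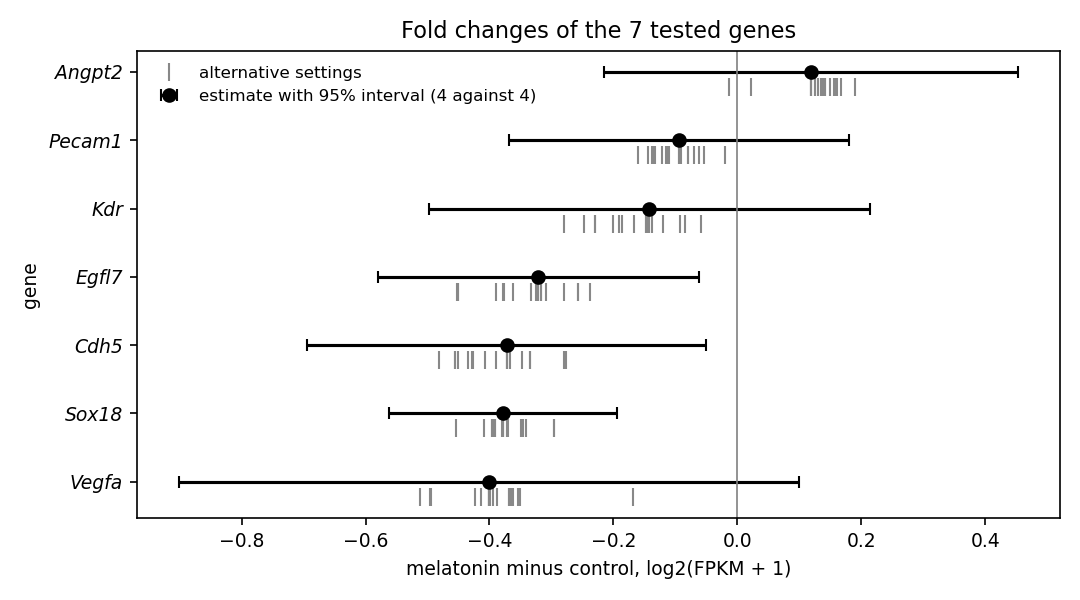
Melatonin minus control on the log2(FPKM + 1) scale for the 7 tested genes, with unadjusted 95% intervals from limma (4 against 4 libraries) and grey ticks for the alternative settings. The intervals of Sox18, Cdh5 and Egfl7 lie below 0, and those of Vegfa, Kdr, Pecam1 and Angpt2 include 0.

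Vegfa, the ligand (chromosome 17, 46016993 to 46032369, mm10), had 28.2, 24.1, 48.6 and 23.3 FPKM in control replicates 1 to 4. In melatonin replicates 1 to 4 it had 20.6, 21.6, 27.3 and 20.1 FPKM. The groups overlapped, and control replicate 3 alone lay far above the rest. The means were 31.1 ± 11.9 and 22.4 ± 3.32 FPKM (n = 4 per group, SD), a log2 fold change of -0.40 ± 0.22 (SE; limma adjusted p = 0.355). Without control replicate 3 it was -0.17 (limma adjusted p = 0.522). That library also held the highest sums of red blood cell, leukocyte and platelet, granulosa (9285 FPKM) and theca (1322.5 FPKM) markers. Its correlation with GC content was also the highest of the 8 libraries (0.261). The part of these in the Vegfa value was not tested. Counting error was small here, since Vegfa rested on 1803 to 4592 fragments per library.

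Kdr, the main signalling receptor of VEGFA (chromosome 5, 75932827 to 75978458), had 1.62, 1.78, 1.26 and 1.37 FPKM in control and 1.28, 0.906, 1.01 and 2.02 FPKM in melatonin. Melatonin replicate 4 held the highest value of all 8 libraries and melatonin replicates 2 and 3 the lowest, so the groups overlapped. The means were 1.51 ± 0.234 and 1.30 ± 0.502 FPKM (n = 4 per group, SD), with a log2 fold change of -0.14 ± 0.16 (SE; 95% interval -0.50 to 0.21; limma adjusted p = 0.642). It was -0.28 without melatonin replicate 4 (limma adjusted p = 0.329) and -0.059 without melatonin replicate 2. Flt1, the decoy-like receptor (chromosome 5, 147561604 to 147726011), had 0.159, 0.289, 0.286 and 0.249 FPKM in control. It had 0.185, 0.131, 0.255 and 0.254 FPKM in melatonin, and the groups overlapped. Those values rest on 38 to 85 fragments per library. Counting alone would give a coefficient of variation of about 12.6% for Flt1, against 24.6% observed in control and 29.2% in melatonin.

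Sox18, the vessel transcription factor (chromosome 2, 181669836 to 181671640), was the one member whose groups did not overlap. It had 14.2, 13.3, 13.9 and 10.99 FPKM in control and 10.1, 9.09, 10.2 and 9.83 FPKM in melatonin. Every melatonin value lay below every control value, though control replicate 4 came within 1 FPKM of the highest melatonin library. The means were 13.1 ± 1.45 and 9.80 ± 0.496 FPKM (n = 4 per group, SD), with a log2 fold change of -0.38 ± 0.080 (SE; unadjusted 95% interval -0.56 to -0.20; limma adjusted p = 0.121). Groups did not overlap in 11.7% of all tested genes, 5.94% with melatonin lower and 5.79% with melatonin higher. With trends over GC content and exon length taken out the value was -0.30 (limma adjusted p = 0.154).

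Cdh5, VE-cadherin of endothelial junctions (chromosome 8, 104101625 to 104144511), had 3.48, 4.68, 3.65 and 2.95 FPKM in control and 3.04, 1.96, 2.41 and 3.08 FPKM in melatonin. Only control replicate 4 fell within the melatonin range. The means were 3.69 ± 0.723 and 2.62 ± 0.540 FPKM (n = 4 per group, SD), with a log2 fold change of -0.37 ± 0.14 (SE; limma adjusted p = 0.217). It was -0.33 with trends over GC content and exon length taken out (limma adjusted p = 0.275). Pecam1, the other junction gene (chromosome 11, 106654217 to 106750628), had 1.33, 1.98, 1.73 and 1.22 FPKM in control and 1.58, 1.27, 1.19 and 1.52 FPKM in melatonin. Its groups overlapped, with a log2 fold change of -0.094 ± 0.12 (SE; 95% interval -0.37 to 0.18; limma adjusted p = 0.694). Without control replicate 2, its highest library, it was -0.019.

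Egfl7, the secreted matrix protein (chromosome 2, 26580014 to 26593120), had 2.37, 3.10, 2.42 and 1.99 FPKM in control and 1.54, 1.74, 2.11 and 1.69 FPKM in melatonin. Melatonin replicate 3 reached above control replicate 4, and the other libraries were separate. The means were 2.47 ± 0.463 and 1.77 ± 0.242 FPKM (n = 4 per group, SD), with a log2 fold change of -0.32 ± 0.11 (SE; limma adjusted p = 0.192). It was -0.26 with trends over GC content and exon length taken out (limma adjusted p = 0.289). The Egfl7 exons overlap those of Agpat2 on the opposite strand, which had a mean of 8.01 FPKM. Use of strand in the counting is not given in the sources used here, so reads of these genes may not be told apart and the Egfl7 value is uncertain. Egfl7 also hosts the endothelial microRNA gene Mir126a, which was listed at 0 FPKM in these messenger RNA libraries.

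Tek, the angiopoietin receptor (chromosome 4, 94739289 to 94874976), had 0.541, 0.949, 0.395 and 0.578 FPKM in control and 0.655, 0.730, 0.538 and 0.678 FPKM in melatonin. Control replicates 2 and 3 held the highest and the lowest value, and the melatonin libraries lay between them. Tie1, its partner (chromosome 4, 118471191 to 118490061), had 0.772, 0.874, 0.591 and 0.499 FPKM in control and 0.714, 0.510, 0.373 and 0.726 FPKM in melatonin, and its groups overlapped. Both rest on few fragments, 41 to 78 per library for Tek and 34 to 83 for Tie1. Angpt2, the antagonist ligand (chromosome 8, 18690263 to 18741562), was the one tested member with a positive log2 fold change. It had 16.95, 12.1, 19.0 and 17.9 FPKM in control and 15.9, 17.3, 16.4 and 21.9 FPKM in melatonin. Its means were 16.5 ± 3.03 and 17.9 ± 2.76 FPKM (n = 4 per group, SD), a log2 fold change of 0.12 ± 0.15 (SE; 95% interval -0.21 to 0.45; limma adjusted p = 0.683). Without control replicate 2, the lowest library, it was -0.013 (limma adjusted p = 0.960).

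Ratios between ligands and receptors were compared as 3 single values with an exact permutation test (two-sided, all 70 assignments of libraries to groups), whose smallest p is 0.0286. The Flt1 to Kdr ratio was 0.167 ± 0.0532 in control and 0.167 ± 0.0582 in melatonin (n = 4 per group, SD; exact p = 1, adjusted 1). Angpt2 exceeded Angpt1 76.1 ± 43.996 times in control and 89.99 ± 36.8 times in melatonin (exact p = 0.571, adjusted 1). The Vegfa to Kdr ratio was 21.6 ± 11.4 in control and 19.3 ± 7.71 in melatonin (exact p = 0.771, adjusted 1). All 3 ratios overlapped between the groups. Angpt1 is a low gene, so the second ratio varied from 23.9 to 132 among libraries.

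**Figure D3:**
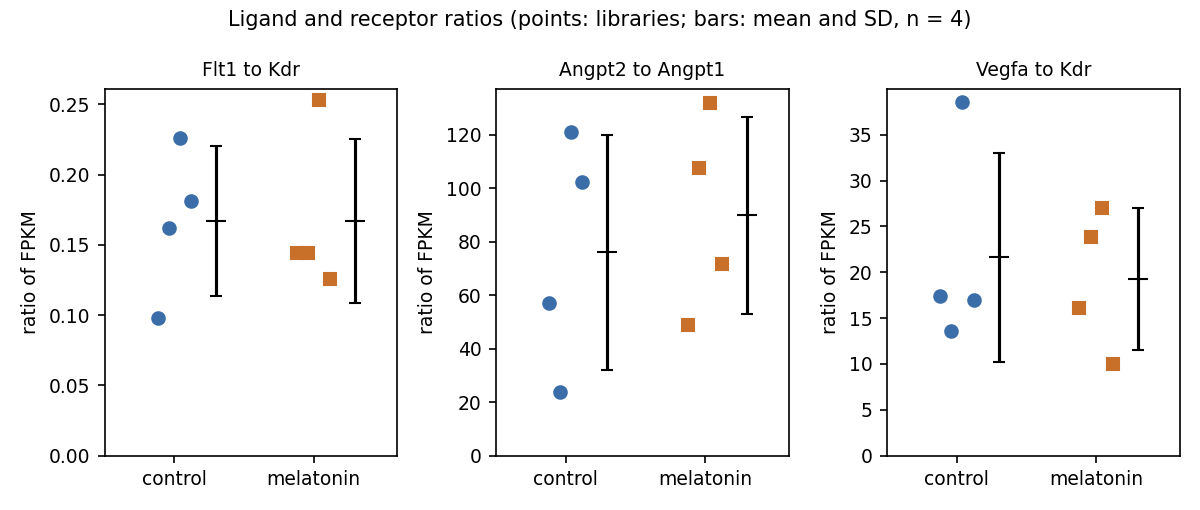
Ratios of FPKM in the 4 control (circles) and 4 melatonin (squares) libraries for Flt1 to Kdr, Angpt2 to Angpt1 and Vegfa to Kdr, with black bars for mean and SD. Points of the groups overlap in all 3 panels, and the highest Vegfa to Kdr ratio is 38.6 in control replicate 3.

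The members varied from library to library within groups, and not all in the same way. Control replicate 2 held the highest value of 6 of the 10 genes (Flt1, Pecam1, Cdh5, Egfl7, Tek and Tie1) and the lowest Angpt2. Melatonin replicate 2 held the lowest value of 4, Kdr, Flt1, Cdh5 and Sox18. The mean deviation of the 9 genes other than Vegfa was 0.19 in control replicate 2 and -0.16 in melatonin replicate 2 on the log2(FPKM + 1) scale. Control replicate 2 also had the highest sums of stromal fibroblast (94.1 FPKM), pericyte and vascular smooth muscle (69.1 FPKM), lymphatic (37.7 FPKM) and oocyte (433 FPKM) markers. The part of these markers in the pattern was not tested. As a description over 8 libraries that share depth and composition, Pearson's r was 0.81 for Pecam1 with Cdh5, 0.81 for Sox18 with Egfl7 and 0.78 for Kdr with Tie1. Vegfa had r from -0.69 with Tek to 0.68 with Sox18, and -0.17 with Kdr, and Angpt2 had r from -0.60 with Egfl7 to 0.10 with Vegfa.

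**Figure D4:**
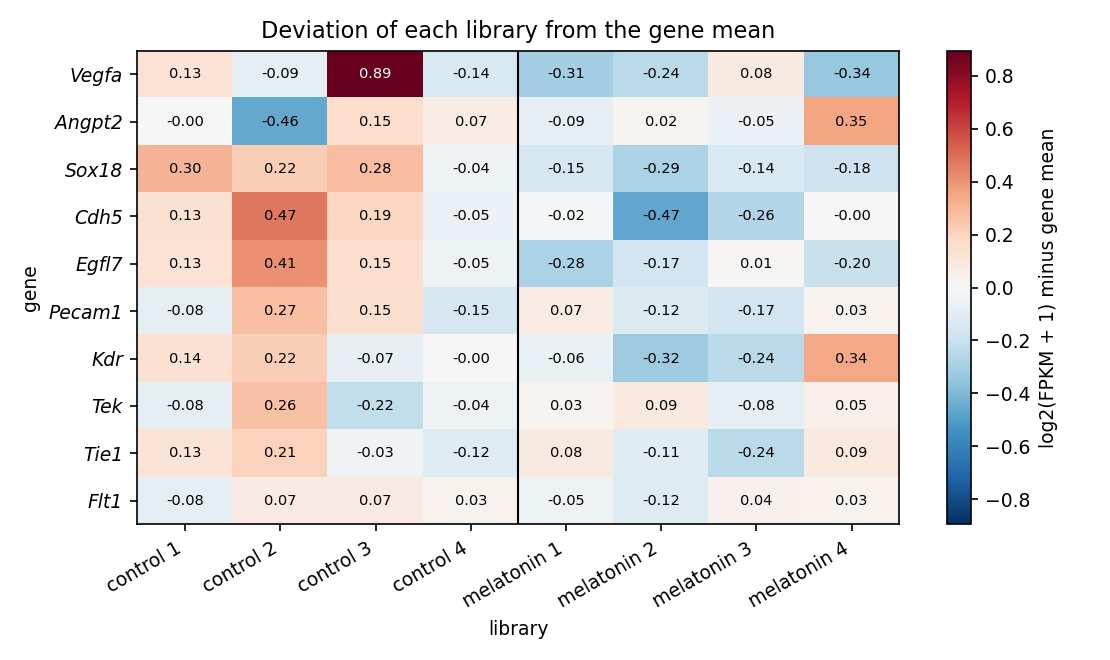
Deviation of each library from the gene's mean over the 8 libraries, in log2(FPKM + 1), for the 10 genes (rows) and 8 libraries (columns, control left of the line). Control replicate 2 is above the mean for 8 of the genes and at -0.46 for Angpt2, and Vegfa is at 0.89 in control replicate 3.

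Genes with the library pattern most like these were ranked by Pearson's r over the 8 libraries among 14731 tested genes, as a description. Nearest to the mean pattern of the 9 genes other than Vegfa were Clec3b (r = 0.97), Rtl8c (0.96), H2-Q4 (0.95), Kif16b (0.95) and H6pd (0.95). Those 9 do not share 1 pattern, since Angpt2 had a negative r with each of the others except Kdr (0.046). Nearest to Vegfa were Tnni3 (r = 0.99), Ralb (0.99), 2310030G06Rik (0.98), Enc1 (0.98) and Gm9833 (0.97). With so few libraries the leading r values of a ranking this long are high by selection.

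Of the VEGF ligand genes other than Vegfa, 2 were tested, and both had negative log2 fold changes with 0 past the threshold. Vegfb, a paralog that binds FLT1, stood near Vegfa in level, at 27.1 ± 1.74 FPKM in control and 25.4 ± 1.27 in melatonin (n = 4 per group, SD; limma adjusted p = 0.447). Vegfd, a ligand of lymphatic growth, had 1.32 ± 0.302 and 1.03 ± 0.339 FPKM. Of the receptors and co-receptors other than Kdr and Flt1, 2 were tested, both negative with 0 past the threshold. No angiopoietin or TIE gene other than Angpt2 reached the filter, so none was tested. Flt4, the VEGF receptor of lymphatic vessels, had 1.43 ± 0.0665 FPKM in control and 1.15 ± 0.516 in melatonin, with 1.91 FPKM in melatonin replicate 4, the library that was also highest for Kdr. Nrp2, a co-receptor, had 1.96 ± 0.488 and 1.88 ± 0.521 FPKM.

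Downstream of the receptors, 33 of 36 signal transducer genes were tested, 23 negative and 10 positive (median -0.043), with 0 past the threshold in either direction. At an unadjusted p under 0.05 there were 1 lower and 4 higher, where 9.74% and 9.4% of all tested genes met that rule. The most abundant were Foxo1, a factor that AKT holds out of the nucleus, at 125.7 ± 16.1 FPKM in control and 122.5 ± 5.97 in melatonin, and the small GTPase gene Cdc42, at 75.2 ± 4.23 and 72.7 ± 3.65 FPKM. The lower one was Map2k1, the kinase MEK1, at 41.5 ± 2.70 FPKM in control and 29.3 ± 5.64 in melatonin (limma adjusted p = 0.128). Tnip2, an adaptor linked to TIE2 signalling, had 10.5 ± 0.643 and 12.6 ± 0.908 FPKM (limma adjusted p = 0.146). Among these transducers groups did not overlap in 1 gene with melatonin lower, Map2k1, and 3 with melatonin higher, Tnip2 among them. Of all tested genes 5.94% and 5.79% did so. Inhibitors and matrix regulators of vessels were split, with 7 of 15 negative and 0 past the threshold, and unadjusted p fell under 0.05 for 1 lower and 1 higher gene. They included the abundant antiangiogenic gene Thbs1, thrombospondin 1, at 438 ± 48.8 and 491 ± 50.1 FPKM, and Sema3g, a semaphorin gene, at 93.6 ± 18.5 and 87.1 ± 9.43 FPKM. Col18a1, the source of endostatin, had 2.30 ± 0.393 FPKM in control and 3.04 ± 0.225 with melatonin, without overlap (limma adjusted p = 0.181). Timp3, an inhibitor of matrix proteases that also blocks VEGF binding to KDR, had 2.64 ± 0.420 and 2.09 ± 0.229 FPKM (limma adjusted p = 0.260).

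Upstream of Vegfa, 8 of 9 oxygen-sensing genes were tested, 5 negative and 3 positive, with 0 past the threshold and 3 lower and 1 higher by unadjusted p (all tested genes 9.74% and 9.4%). Hif1a, the hypoxia-inducible factor that drives Vegfa, had 34.1 ± 6.36 FPKM in control and 27.0 ± 2.49 in melatonin (limma adjusted p = 0.239). Its relative Epas1 had 36.7 ± 2.898 and 26.7 ± 8.73 FPKM, with 39.0 FPKM in melatonin replicate 4 (limma adjusted p = 0.221). Egln1, the hydroxylase that marks these factors for breakdown in oxygen, had 12.3 ± 0.687 and 10.7 ± 0.473 FPKM without overlap (limma adjusted p = 0.150). Groups also did not overlap for Arnt, named after its values were seen, at 12.1 ± 0.572 FPKM in control and 12.9 ± 0.265 in melatonin. Of all tested genes 5.94% did not overlap with melatonin lower and 5.79% with melatonin higher. Arnt2, a dimer partner, had 12.98 ± 3.29 and 18.4 ± 1.92 FPKM (limma adjusted p = 0.169).

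Endothelial transcription factors had 14 of 26 genes tested, Sox18 among them, 8 negative and 6 positive (median -0.023), with 0 past the threshold. By unadjusted p under 0.05 there were 5 lower, Sox18 included, and 0 higher, where 9.74% and 9.4% of all tested genes met that rule. In 4 of the 14 the melatonin values lay wholly below control, where 5.94% of all tested genes did so. These were Sox18, Klf2 (13.5 ± 1.54 against 8.66 ± 1.45 FPKM), Klf4 (5.08 ± 0.748 against 2.66 ± 0.587) and Hhex (2.22 ± 0.252 against 1.76 ± 0.202), where Hhex was chosen after its values were seen. The most abundant were the Notch target Hey2, at 17.95 ± 2.62 and 15.5 ± 0.757 FPKM, and Ets2, at 14.98 ± 0.734 and 16.03 ± 0.983 FPKM, both overlapping. Klf2 and Klf4 respond to blood flow in endothelium and are immediate-early genes in many other cells. Further endothelial genes had 13 of 37 tested, 9 negative and 4 positive (median -0.064), with 0 past the threshold. Tspan12, a tetraspanin gene of retinal vessel growth, was the one with an unadjusted p under 0.05, with 4.96 ± 0.470 FPKM in control and 5.89 ± 0.571 with melatonin (limma adjusted p = 0.232). Eng, the TGF-beta co-receptor endoglin, had 2.02 ± 0.452 FPKM in control and 1.39 ± 0.526 in melatonin (limma adjusted p = 0.315). Adgrf5, the highest of that list, had 12.5 ± 3.35 and 13.5 ± 4.83 FPKM.

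Markers of other vessel cells were examined beside the endothelial genes. Pericyte and vascular smooth muscle markers had 7 of 13 below a mean of 1 FPKM and 6 tested, 4 negative and 2 positive (median -0.13), with 0 past the threshold. Their summed level was 43.0 to 69.1 FPKM in control and 42.7 to 66.7 in melatonin, most of it from Acta2 (41.2 ± 10.6 and 41.2 ± 9.19 FPKM). Myh11, smooth muscle myosin, had 3.19 ± 0.837 and 2.58 ± 0.474 FPKM, and Mcam 2.27 ± 0.488 and 1.73 ± 0.369 FPKM. The pericyte genes Pdgfrb, Cspg4, Notch3 and Rgs5, named after their values were seen, had means of 2.61, 2.55, 0.474 and 0.306 FPKM. Lymphatic markers had 2 negative and 2 positive of 4 tested. Pdpn, podoplanin, had 18.8 ± 7.403 FPKM in control and 13.5 ± 2.38 with melatonin, Reln 1.62 ± 0.534 and 2.04 ± 0.433, and Ccl21a, one of several near-identical copies and so uncertain, 3.72 ± 3.06 and 5.68 ± 6.29. Their defining genes Prox1 and Lyve1, named after their values were seen, had means of 0.303 and 0.873 FPKM. Endothelial Notch genes had 3 negative and 4 positive of 7 tested (median 0.052). The ligand gene Jag1 had 5.02 ± 0.849 FPKM in control and 5.60 ± 1.14 with melatonin, and the target Hes1 had 3.25 ± 0.391 and 3.93 ± 0.501 FPKM. The tip-cell ligand gene Dll4, also named after its values were seen, stood at a mean of 0.129 FPKM. Markers of the surrounding theca had 6 of 7 tested genes negative (median -0.35), with Cyp17a1 at 19.8 ± 3.24 FPKM in control and at 4.10, 3.26, 7.54 and 20.4 FPKM in melatonin replicates 1 to 4 (limma adjusted p = 0.175). Of all tested genes 52.5% were negative, with a median of -0.0099. Stromal fibroblast markers were negative in 7 of 7 (median -0.30) and leukocyte and platelet markers in 6 of 6 (median -0.40). Red blood cell markers were negative in 4 of 5 (median -0.40). Ovarian surface epithelium markers were negative in 3 of 3 (median -0.47) and oocyte markers in 7 of 8 (median -0.11). All genes of a list share the same 8 libraries, so such signs are not separate observations. Granulosa markers, from cells that make VEGFA, were negative in 7 of 8 (median -0.29), and their summed level did not overlap between groups, at 7555 to 9285 FPKM in control and 6451 to 7162 in melatonin, most of it from Inha. Of the 18 lists, the endothelial transcription factors were the other one whose sums did not overlap, at 101.99 to 115.7 FPKM in control and 91.4 to 95.04 in melatonin. Its largest parts were Hey2 and Ets2 (means of 16.7 and 15.5 FPKM over the 8 libraries), of which Hey2 had the lower and Ets2 the higher mean with melatonin. The sum also includes Sox18, Klf2, Klf4 and Hhex, whose melatonin values lay wholly below control. Of the 14 tested genes of that list 8 were negative and 6 positive. Groups did not overlap in 11.7% of single tested genes. By unadjusted p under 0.05, 3 of 7 theca, 3 of 8 granulosa and 1 of 3 surface epithelium markers were lower, and 0 were higher. Stromal, leukocyte and platelet, red blood cell and oocyte markers had 0 in either direction. Of all tested genes 9.74% were lower by that rule and 9.4% higher. The part of these cell types in the values of Vegfa and the endothelial genes was not tested.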

How the data were processed

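Messenger RNA of 8 follicle samples was sequenced, 4 per group. Alignment by the authors used HISAT2 2.0.5 and the mm10 genome (per the submitters' processing notes), and FPKM per gene was deposited, per the file headers. For the counting tool, the annotation and strand, nothing is given in the sources used here. The sample files and the series table differed in 0 values.

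Exon lengths and coordinates came from GENCODE M21 (mm10), which matched 54495 of 55157 identifiers. FPKM times length gave whole fragments (within 0.05) for 98.8% of values of up to 30 fragments, and so the depth. Being relative to its library, FPKM does not measure total RNA.

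Genes averaging 1 FPKM or more entered limma 3.58.1 (R 4.3.3, trended empirical Bayes, group as the single term) on log2(FPKM + 1), which understates changes of low genes. The threshold was an adjusted p of 0.05. The limma fit and the fragment recovery were tested on simulated data. Ratios and levels used exact permutation tests (Python 3.11.15, numpy 2.4.6). Promoters are RefSeq's.

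The members and lists were chosen with earlier results of these data known. Named genes were all members, the 2 highest and the 2 of smallest p in each list of vessel and pathway genes (members apart), and the 5 nearest in pattern. Lists of other cell types follow the same rule but are given mainly by counts and sums, with few genes named. Others are marked as chosen after their values were seen. Alternatives were quantile normalization, median-ratio scaling, no filter, a filter of 5 FPKM, a pseudocount of 0.1, a replicate block, array weights, trends over GC content and exon length taken out (alone and with the block), limma-voom on recovered fragments and leaving out each library. limma-voom on genes with a mean of at least 10 fragments was added after the data were seen.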

Additional observations from a re-analysis of the deposited data

Results flagged for a closer look

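In 3 of 62 groups of 4 libraries checked, 1 library lay far from the other three by Dixon's criterion, which chance meets in about 1 of 20 groups. The Flt1 to Kdr ratio was 0.253 in melatonin replicate 3, where the other melatonin libraries had 0.126 to 0.145. The Vegfa to Kdr ratio was 38.6 in control replicate 3, where the other control libraries had 13.6 to 17.4. Summed stromal fibroblast markers were 94.1 FPKM in control replicate 2, where the other control libraries had 44.3 to 51.5 FPKM.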

How the results depend on the processing

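No member passed the threshold in any of the 19 alternative settings, with limma adjusted p from 0.0876 to 0.313 for Sox18, which was lower in all 19. Its unadjusted p was under 0.05 in all 19, that of Egfl7 in 14 of 18 and that of Cdh5 in 12 of 18. The log2 fold change ran from -0.51 to -0.17 for Vegfa, -0.28 to -0.059 for Kdr, -0.16 to -0.019 for Pecam1, -0.48 to -0.28 for Cdh5, -0.45 to -0.30 for Sox18 and -0.45 to -0.24 for Egfl7. Angpt2 ran from -0.013 (without control replicate 2) to 0.19. The count of all genes called was 0, and 1 without a filter, 1 with GC content and exon length trends removed with the replicate block, and 0 to 1 with 1 library left out (1 without control replicate 1). None of these was a member.

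The Flt1 to Kdr log2 difference turned from 0.0058 to -0.16 after the GC content and exon length correction. With 1 library left out it ran from -0.23 (without control replicate 1) to 0.17, and was -0.21 without melatonin replicate 3. The Angpt2 to Angpt1 difference (0.39) was 0.99 after that correction and ran from -0.085 (without control replicate 2) to 0.70 with 1 library left out. With 1 library left out, the Vegfa to Kdr difference (-0.14) ran from -0.34 to 0.18 (without control replicate 3), and was 0.14 without melatonin replicate 4. The cause of these moves was not tested. Correlations of same-numbered libraries ran from -0.10 to 0.15, not every library correlated best with its own number, and the numbers were not treated as pairs. With the replicate block Vegfa was at -0.40 (adjusted p = 0.191) with 0 members called. Depth limits Flt1, Tek and Tie1, whose log2 fold changes were -0.046, 0.040 and -0.092 without a filter (log2(FPKM + 1), adjusted p = 0.752, 0.903 and 0.768) and -0.25, 0.20 and -0.19 with limma-voom on genes of at least 10 fragments (adjusted p = 0.664, 0.712 and 0.729).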
